A study of Macrobrachium nipponense with 2 samples.

Results

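The assembled transcripts of the oriental river prawn *Macrobrachium nipponense* are grouped by their IDs into components, sets of sequences that the assembly kept together. Described here are the 189 components whose most abundant sequence was one in the hepatopancreas and another in muscle. They were chosen by the estimated read counts themselves. Of the 71231 components in the table, 11209 hold several sequences, and 957 of these had at least 1000 summed counts in each tissue and no sequence of 10000 bases or longer. Within each component the share of a sequence is its count divided by the summed count of the component, per tissue. The main sequence is the one with the highest share, and a component was kept when its main sequence differed between tissues and the share of one sequence differed by at least 50 percentage points. These 189 were 19.7% of the 957 eligible components. The choice used the same counts that are shown here, so the shares are a description and carry no test.

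One library was made from the hepatopancreas and 1 from muscle with an Illumina TruSeq RNA kit. By the labels the prawns were juveniles bought at a market and held in aerated freshwater before the tissues were taken, and how many animals went into a library is not given. The hepatopancreas library held 99204205 estimated counts and the muscle library 80492031. Neither tissue has a replicate library, so each difference below is a difference between 2 libraries and not a tested difference between tissues.

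The hepatopancreas is the digestive gland and the main lipid store of crustaceans, and muscle is built for contraction. One gene can give several transcripts through alternative promoters, exons and polyadenylation sites, and muscle genes of arthropods are known for tissue-specific exon choice (in *Drosophila*, troponin T and the myosin heavy chain). In an assembly made without a genome, sequences of one component can be such isoforms, but they can also be alleles, close paralogs or partly assembled pieces. The table gives IDs, lengths and counts without gene names or sequences. Its IDs are labels of the assembly, so their 0 matches to the RefSeq gene table of the species say nothing about the genes. Without names or sequences these possibilities cannot be told apart here, and no gene is named. For the same reason the tissue labels could not be checked against marker genes, and no sequence is printed.

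The shares that chose the members show how far the exchange went. The hepatopancreas main sequence held a median of 78.9% of its component's counts in the hepatopancreas (24.6% to 100%) and 4.18% in muscle (0 to 43.5%). The muscle main sequence held a median of 2.41% in the hepatopancreas (0 to 47.0%) and 73.8% in muscle (21.6% to 100%). The largest share difference had a median of 70.7 points. It was at least 75 points in 74 members, at least 90 points in 27 and 100 points in 5, while 50 members lay below 60 points. In 135 members each main sequence held over 50% of its own tissue's counts, and in the other 54 only one of them did.

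**Figure D1:**
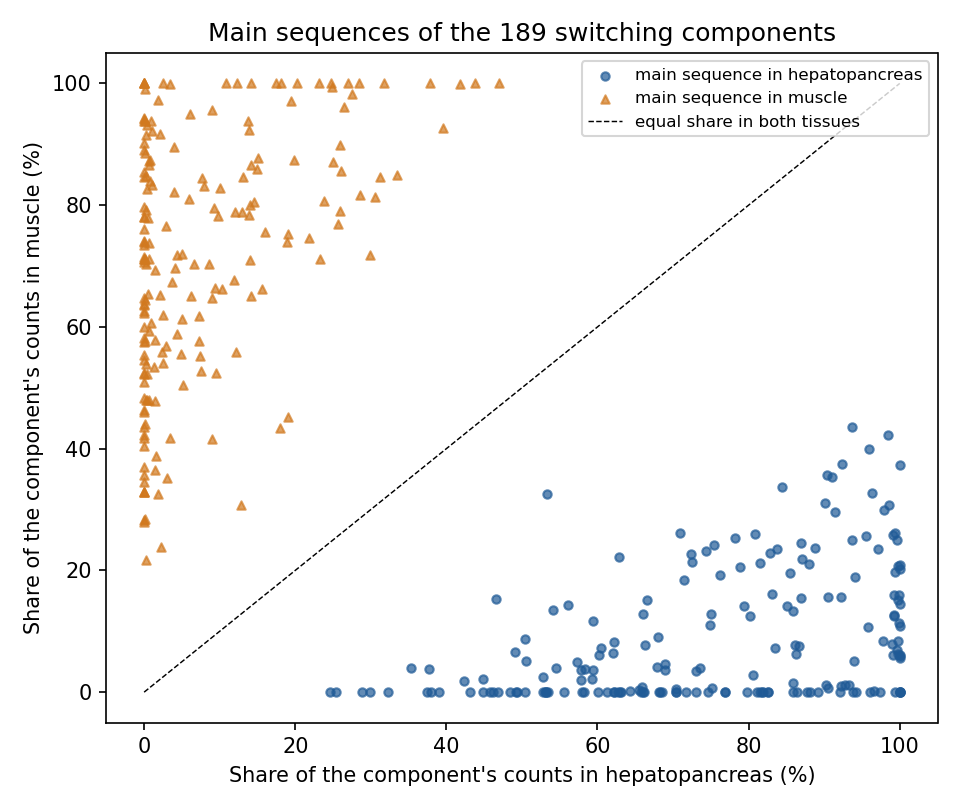
Share of each main sequence in its component's counts, in the hepatopancreas (x axis, %) against muscle (y axis, %), for the 189 components. Blue circles are the hepatopancreas main sequences (median 78.9% in the hepatopancreas and 4.18% in muscle), orange triangles the muscle main sequences (median 2.41% and 73.8%), and the dashed line marks equal shares; the empty middle follows from the rule.

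Many main sequences left no counts at all in the other library. The hepatopancreas main sequence was at 0 in muscle in 63 members, and the muscle main sequence was at 0 in the hepatopancreas in 45. Both were at 0 in 19 members, and in 100 members both main sequences had counts in both libraries. The rule itself favours low shares in the other tissue, so nothing is read from how many zeros there were. A zero is limited by the depth of the component, since 3 counts would be 0.0339% of the 8854 hepatopancreas counts of comp53973_c0 but 0.215% of the 1393 of comp49874_c0. These limits and the exact (Clopper-Pearson) 95% intervals below cover counting error only.

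The 4 members with the largest share difference each showed 0 for both main sequences in the other tissue. In comp53973_c0 all 8854 hepatopancreas counts lay on a sequence of 4139 bases, and all 4432 muscle counts on one of 4187 bases. In comp55723_c0 all 3325 hepatopancreas counts lay on a sequence of 4284 bases, and all 3000 muscle counts on one of 4435 bases. Both components hold just these 2 sequences, so in each library one of them had all the estimated counts and the other had 0. How the estimation divided reads between like sequences is not known, so a 0 does not show that a tissue lacks the sequence. In comp57756_c0 the hepatopancreas counts were divided over a sequence of 3143 bases (62.7%, interval 60.7% to 64.7%) and one of 3844 bases (37.3%), while all 1321 muscle counts lay on another of 3677 bases. In comp49874_c0 all 1393 hepatopancreas counts lay on a sequence of 2245 bases, and muscle had 0 counts there and divided its 1409 over sequences of 2104 bases (71.2%, interval 68.7% to 73.5%) and 2155 bases (28.8%). By summed level these 4 components differed little, with log2 ratios of hepatopancreas to muscle of 0.69, -0.15, 0.45 and -0.30 in the order named. The levels are counts per 1000000 counts of the library (CPM), and the ratios are on log2(CPM + 1). One more component with a difference of 100 points, comp57638_c0, holds sequences of 1620 and 1621 bases, with all 1747 hepatopancreas counts on the shorter and all 1046 muscle counts on the longer (chosen after its values were seen).

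Members in which a single sequence held nearly all counts in each tissue were mostly components of 2 sequences. Components of 2 sequences meet this limit most easily, and it does not measure how much of the counts was exchanged. In comp56430_c0, with 10 sequences, no sequence had counts in both tissues (named after its values were seen). In 15 members both main sequences held over 90% of their own tissue, and 13 of these hold 2 sequences and the other 2 hold 3 sequences. Their main sequences differed in length by 0 to 331 bases (median 59). Their summed levels differed in either direction, with log2 ratios from -3.16 to 3.63. All 15 still met the rule when shares were computed from FPKM. FPKM values are fragments scaled by transcript length and library depth, which the authors deposited beside the counts. With such high shares and such close lengths this scaling could hardly change the outcome, so nothing is read from it.

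The deepest members carried the exchange at high counts, where counting error is small. comp57931_c0 was the most abundant member by far, with summed levels of 15175 CPM for the hepatopancreas library and 9145 CPM for the muscle library (log2 ratio 0.73). It holds 2 sequences that differ by 15 bases, of 5543 and 5528 bases. The longer had 1118911 hepatopancreas counts and 170274 muscle counts, and the shorter had 386467 and 565785. The longer thus held 74.3% of the hepatopancreas counts (74.3% to 74.4%) and 23.1% of the muscle counts (23.0% to 23.2%), so both sequences were abundant in both tissues and the balance between them was turned round. Its largest share difference, 51.2 points by counts and by FPKM, lay close to the threshold of 50.

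comp53638_c1 and comp53638_c0 share an assembly number and came next in depth. In comp53638_c1 a sequence of 996 bases had 144747 counts in the hepatopancreas and 9305 in muscle, and one of 1181 bases had 252 and 141047. In comp53638_c0 a sequence of 693 bases had 111163 counts in the hepatopancreas and 8334 in muscle, and one of 988 bases had 7142 and 155900. In both components the shorter sequence was the main one in the hepatopancreas, with 99.8% (99.80% to 99.85%) and 93.9% (93.8% to 94.1%) of its counts, and the longer was the main one in muscle, with 93.8% and 94.9%. Their summed levels differed less, with 1462 hepatopancreas CPM and 1868 muscle CPM for comp53638_c1, and 1193 and 2040 CPM for comp53638_c0. Whether the pair are pieces of one gene was not tested.

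The fourth of the deep members also paired a shorter hepatopancreas sequence with a longer muscle one. comp43549_c0 has a sequence of 1043 bases with 35788 counts in the hepatopancreas and 10977 in muscle, and one of 1671 bases with 221 and 30953. The shorter held 99.4% of the hepatopancreas counts (99.3% to 99.5%) and still 26.2% of the muscle counts (25.8% to 26.6%). By FPKM the largest share difference was 62.7 points in place of 73.2. Among all 15 members with at least 10000 counts in each tissue, the muscle main sequence was the longer in 9 and the hepatopancreas main sequence in 6, and 9 had summed levels within 2-fold of each other.

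**Figure D2:**
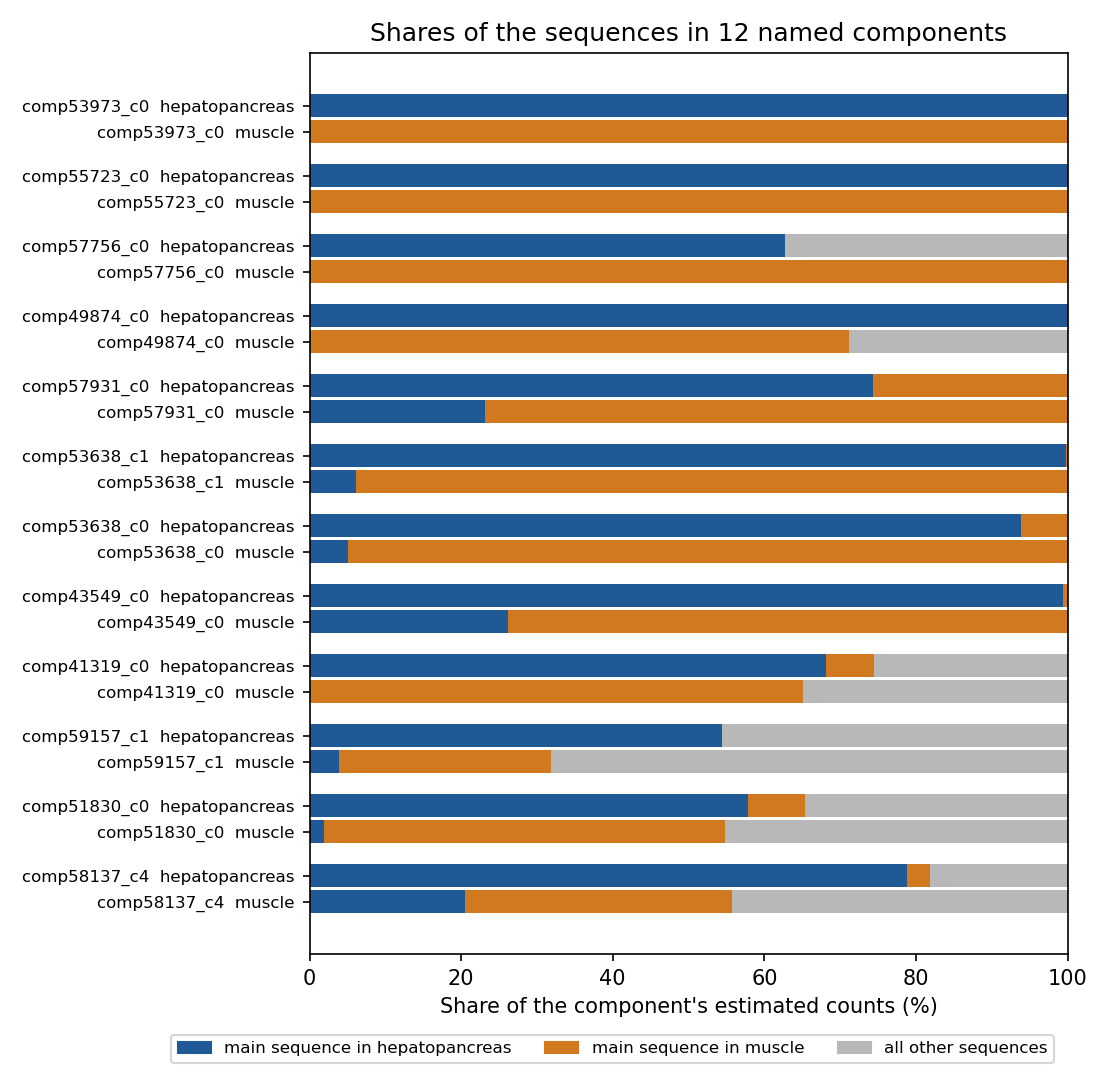
Shares of the sequences (%, x axis) in 12 named components, with the hepatopancreas bar above the muscle bar of each. Blue is the hepatopancreas main sequence, orange the muscle main sequence and grey all other sequences together; in comp53973_c0 the bars are wholly blue and wholly orange, while in comp57931_c0 blue covers 74.3% and 23.1%.

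A switch of main sequence did not go with one direction of the summed level. A component was called higher in one tissue when log2(CPM + 1) of the sums differed by at least 2 and the higher library had at least 10 CPM. By this limit 22 of the 189 (11.6%) were higher in the hepatopancreas, against 9.82% of all 957 eligible components, and 15 (7.94%) were higher in muscle, against 6.37%. The other 152 met it in neither direction. The lead of the hepatopancreas over muscle in number of members depended on the scaling. With the median of the eligible components set to 0 the split was 17 and 17 of the 189 (against 7.73% and 7.84% of the eligible components). With summed FPKM it was 18 and 18 (against 8.57% and 6.48%). In both settings the members' shares stayed above those of the eligible components, which was not tested. The median log2 ratio over the members was 0.23 and over the other 768 eligible components 0.25. With the median of all eligible components, 0.25, set to 0 the members' median was -0.02, so no direction is given. Summed levels lay within 2-fold in 93 members (49.2%) and in 439 of the other eligible components (57.2%).

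**Figure D3:**
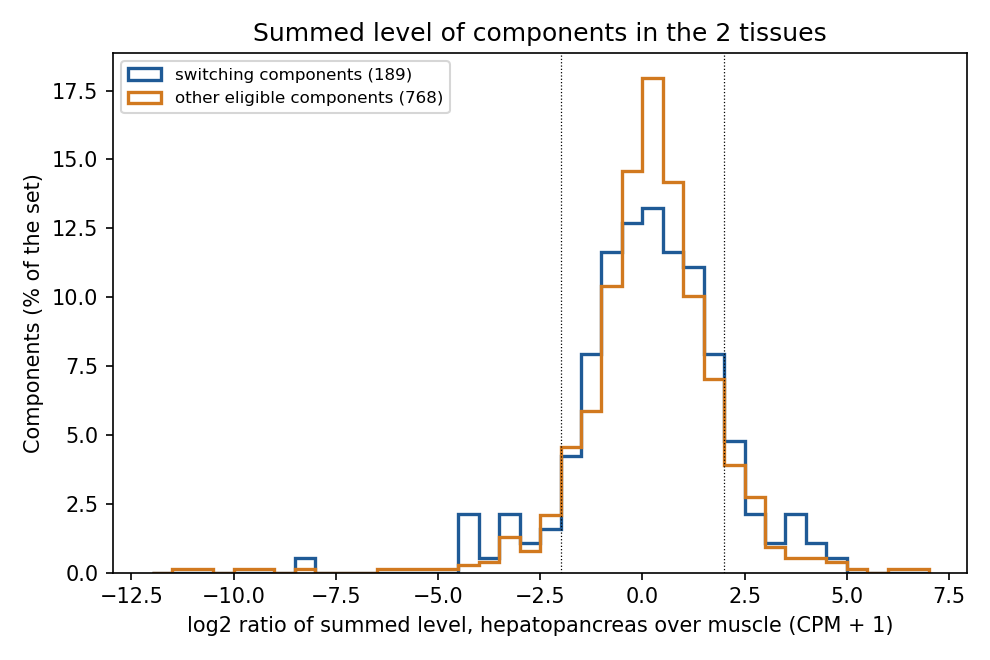
Distribution of the log2 ratio of summed level, hepatopancreas over muscle, on CPM + 1 (x axis), as a percent of each set (y axis, bins of 0.5). The 189 switching components (blue, median 0.23) and the 768 other eligible components (orange, median 0.25) cover much the same range, and the dotted lines mark the limits of -2 and 2.

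Read as single transcripts, 76 of the 189 components gave a call in each direction. The hepatopancreas main sequence met the same limit as higher in the hepatopancreas in 136 members, against 27.3% of all 957 eligible components, and the muscle main sequence was higher in muscle in 117, against 21.6%. Both held in the 76, against 9.61% of the eligible components. By sign alone, the muscle main sequence was higher in the hepatopancreas in 11 members and the hepatopancreas main sequence was higher in muscle in 5. Of the 76, 64 had a summed level called in neither direction, and 44 had sums within 2-fold. These single-sequence values come from the counts that chose the members, so nothing is read from their excess over the eligible components.

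The members with the most extreme summed levels also exchanged their main sequence, as the rule requires of every member. comp41319_c0 had the highest ratio, with 440 hepatopancreas CPM and 14.6 muscle CPM (log2 ratio 4.82). Its sequences of 3698, 3703 and 3667 bases had 29760, 11161 and 2729 counts in the hepatopancreas, and 0, 410 and 765 counts in muscle. The most abundant hepatopancreas sequence thus had 0 counts in muscle, where the least abundant one led with 65.1%.

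comp59157_c1 came second, with 270 hepatopancreas CPM and 13.8 muscle CPM (log2 ratio 4.20). Its main sequence in the hepatopancreas, of 2862 bases, had 14583 counts there (54.5%) and 43.3 in muscle (3.90%). Muscle spread 1108 counts over many of the 21 sequences, and the highest of them, of 2231 bases, had 0.15 counts in the hepatopancreas and 309 in muscle (27.9%). By FPKM the muscle lead passed to a sequence of 228 bases with 30.2%, so the muscle main sequence of this component rests on the unit.

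In the other direction comp51830_c0 had 13.7 hepatopancreas CPM and 4880 muscle CPM, a log2 ratio of -8.37. Its 4 sequences are 1762, 1764, 3202 and 3204 bases long. They had 280, 789, 103 and 191 counts in the hepatopancreas, and 129003, 7673, 207448 and 48697 in muscle. The 1764-base sequence led in the hepatopancreas with 57.9%, against 1.95% in muscle, and the 3202-base sequence led in muscle with 52.8%, against 7.55% in the hepatopancreas. By FPKM the muscle lead passed to the 1762-base sequence, with 46.9% against 40.7% for the 3202-base one, so the muscle main sequence and its length rest on the unit here too. Grouped by length after the values were seen and taken by counts, the sequences of 1762 and 1764 bases held 78.4% of the hepatopancreas counts and 34.8% of the muscle counts. The shorter of each pair that differs by 2 bases (1762 and 3202) held 28.1% in the hepatopancreas and 85.7% in muscle. The hepatopancreas sum was 0.347% of the muscle sum, and whether it holds RNA or reads from muscle was not tested.

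comp58137_c4 was the second in this direction, with 16.8 hepatopancreas CPM and 369 muscle CPM (log2 ratio -4.38). A sequence of 5214 bases held 78.9% of the hepatopancreas counts and 20.5% of the muscle counts, and one of 5070 bases held 3.03% and 35.2%. A further sequence of 6168 bases held 0.229% and 26.0%, so the muscle counts lay on several sequences and the hepatopancreas counts mainly on a single one. Another member with the same assembly number, comp58137_c0, had sums of 1646 counts in the hepatopancreas and 1905 in muscle, which shows that components of one number can differ in summed level. Among all members 3 numbers held 2 members each, and the 6 members in them may not be independent items, which was not tested.

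The main sequences of a member were usually close in length. The hepatopancreas main sequence was the longer in 101 members and the muscle main sequence in 84, and in 4 they were equal. The median difference, hepatopancreas minus muscle, was 15.0 bases, and among the 15 members with at least 10000 counts in each tissue the balance was the other way (6 and 9), so neither tissue is given as the one with longer sequences. The size of the difference had a median of 111 bases (quartiles 35.0 and 397). It was 1 to 30 bases in 38 members, 31 to 300 in 93 and over 300 in 54. For comparison, the main sequences of the 225 eligible components that also changed their main sequence, but by less than 50 points, differed by a median of 337 bases. In the 2 leading sequences of a component (highest sum of the shares in both tissues) the median difference was 119 bases in members and 482 bases in the other 768. Shares of counts depend on length, so the choice of members was not independent of these lengths.

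**Figure D4:**
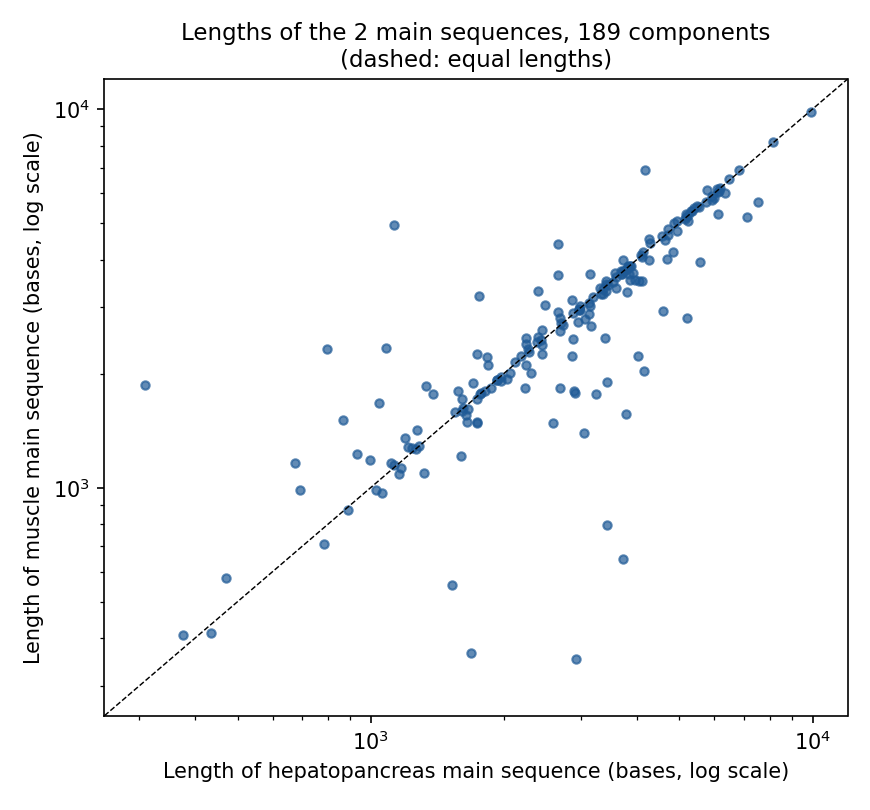
Length of the hepatopancreas main sequence (x axis, bases, log scale) against that of the muscle main sequence (y axis, bases, log scale) for the 189 components, with equal lengths on the dashed line. Most points lie near the line (median difference 111 bases), and 12 lie 2-fold or more from it.

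Length differences in multiples of 3 bases, the size of a codon, were counted. The rule named lengths only as a ceiling, but its shares are of counts, and a longer sequence collects more reads. Of the 185 members with main sequences of unequal length, 93 (50.3%) differed by a multiple of 3, 52 left a remainder of 1 and 40 a remainder of 2. The share was 55.3% of the 38 that differed by up to 30 bases, 57.0% of the 93 that differed by 31 to 300 bases and 35.2% of the 54 with larger differences. In the 225 components with a smaller change it was 45.3% in all, and 62.5%, 46.9% and 40.8% in the same 3 classes, above the members in the first and the last class. Among the 2 leading sequences of a component it was 52.4% of 185 members and 40.7% of 761 other eligible components. In the same 3 classes it was 55.3%, 58.2% and 41.1% in members and 41.4%, 49.8% and 35.8% in the others. The 2 sets differ in their mix of classes, since 56 of the 185 members but 441 of the 761 others differed by over 300 bases. These shares are a description with no test, and the coding region of these sequences is not known.

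Equal or nearly equal lengths did not prevent a clear exchange. The 4 members with main sequences of equal length were comp43812_c0 (1929 bases), comp48551_c0 (1768), comp54469_c3 (1266) and comp54632_c0 (2967), all named after their values were seen. In comp48551_c0 one sequence had 1562 counts in the hepatopancreas and 79.4 in muscle, and the other had 0 and 1271. In comp43812_c0 one had 15646 and 562 counts, and the other 235 and 1267. Both exchanges thus lay between sequences that their lengths do not tell apart. By FPKM comp54632_c0 no longer met the rule, with 39.9 points.

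In 12 members the main sequences differed in length by 2-fold or more, with the hepatopancreas one longer in 8 and the muscle one in 4. In comp58911_c1 the hepatopancreas main sequence had 2913 bases and the muscle one 353. The longer had 1429 counts in the hepatopancreas (37.7%) and 43.0 in muscle, and the shorter 520 (13.7%) and 1047 (93.8%). By FPKM the 353-base sequence led in both tissues, with 35.4% in the hepatopancreas and 98.1% in muscle, so this switch is one of counts and not of levels per length. In comp56915_c0 a sequence of 3730 bases held 99.4% of the 6141 hepatopancreas counts and had 0 in muscle. Muscle divided 8896 counts over sequences of 650, 819, 780 and 697 bases, with 32.9%, 26.2%, 22.9% and 10.3%, and one of 4218 bases with 7.79%. This contrast of 1 long sequence in the hepatopancreas with several short ones in muscle held by FPKM, with a largest difference of 99.4 points. The unit could change that difference little, since a sequence with 0 counts also has an FPKM of 0.

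In comp58781_c0 and comp57850_c0 the muscle main sequence was the longer. In comp58781_c0 a sequence of 1128 bases held 93.2% of the 3165 hepatopancreas counts and 1.26% of the 44429 muscle counts, while one of 4946 bases held 2.46% and 61.9%, and one of 4649 bases 3.54% and 36.3%. In comp57850_c0 a sequence of 308 bases led in the hepatopancreas with 1158 of 2506 counts (46.2%), followed by one of 1849 bases with 33.7%, and both had 0 counts in muscle. Muscle had 693 of 1129 counts (61.4%) on a sequence of 1863 bases, which held 4.99% in the hepatopancreas. The other 436 muscle counts (38.6%) lay on a sequence of 1224 bases, which held 9.98% in the hepatopancreas. By FPKM these sequences were nearly level in muscle, with 50.5% and 49.5%. The table does not show which bases the short and long sequences share.

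Since a longer sequence collects more reads, shares were also taken from the deposited FPKM values. Of the 189 members, 181 still had different main sequences in the 2 tissues, 150 the same pair of main sequences, and 151 (79.9%) met the whole rule. The 38 that did not meet it had a median share difference of 59.0 points by counts and 40.1 points by FPKM, and their main sequences differed in length by a median of 239 bases, against 108 bases in the 151 that met it. A further 17 eligible components met the rule by FPKM alone.

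Few of these counts are whole, so most are estimates and not tallies of reads, and how they were estimated is not known. All 4 counts of the main sequences were whole numbers (within 1e-06) in 1 member, comp57600_c0, where a sequence of 1549 bases had 1467 counts in the hepatopancreas and 0 in muscle and one of 1585 bases had 0 and 1888 (named after its values were seen). In every other member at least 1 of the 4 counts was not whole. Summed over the component, counts were whole in both tissues (within 0.005 per sequence, the rounding of the table) in 17 members (8.99%) and in 52 of the other 768 (6.77%). A sum can be whole in 1 tissue only, as in comp40698_c0 with 6031.14 in the hepatopancreas and 1156.0 in muscle. How often this was so was not counted. How the estimation moves the shares was not tested, and the binomial intervals above do not hold it.

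Members were found at like frequency in components of few and of many sequences. They made up 18.7% of the 315 eligible components of 2 sequences, 21.9% of 247 with 3 to 4, 19.9% of 236 with 5 to 9, 19.4% of 124 with 10 to 19 and 14.3% of 35 with 20 or more (5 members, exact interval 4.81% to 30.3%). Members hold 2 to 23 sequences, with a median of 4, as in the other eligible components. In the 59 members of 2 sequences the median largest difference was 77.7 points, and in the 29 with 10 or more it was 63.7 points. The largest difference is that of a single sequence. With 2 sequences it holds the whole change in shares, and with more it can hold only a part. The gap between these medians thus does not show that components of many sequences changed less.

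The frequency was higher among the deepest components. Where the smaller of the 2 sums was 10000 counts or more, 15 of 41 eligible components were members (36.6%, exact interval 22.1% to 53.1%). It was 23.6% of 72 at 5000 to 10000 counts (14.4% to 35.1%), 18.7% of 315 at 2000 to 5000 (14.6% to 23.5%) and 18.5% of 529 at 1000 to 2000 (15.3% to 22.1%). These intervals cover only the number of components, which are not replicates, and that of the deepest class overlaps those of the next 2 classes. By length of the longest sequence the share lay between 16.1% (1500 to 3000 bases) and 23.8% (5000 bases or more).

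**Figure D5:**
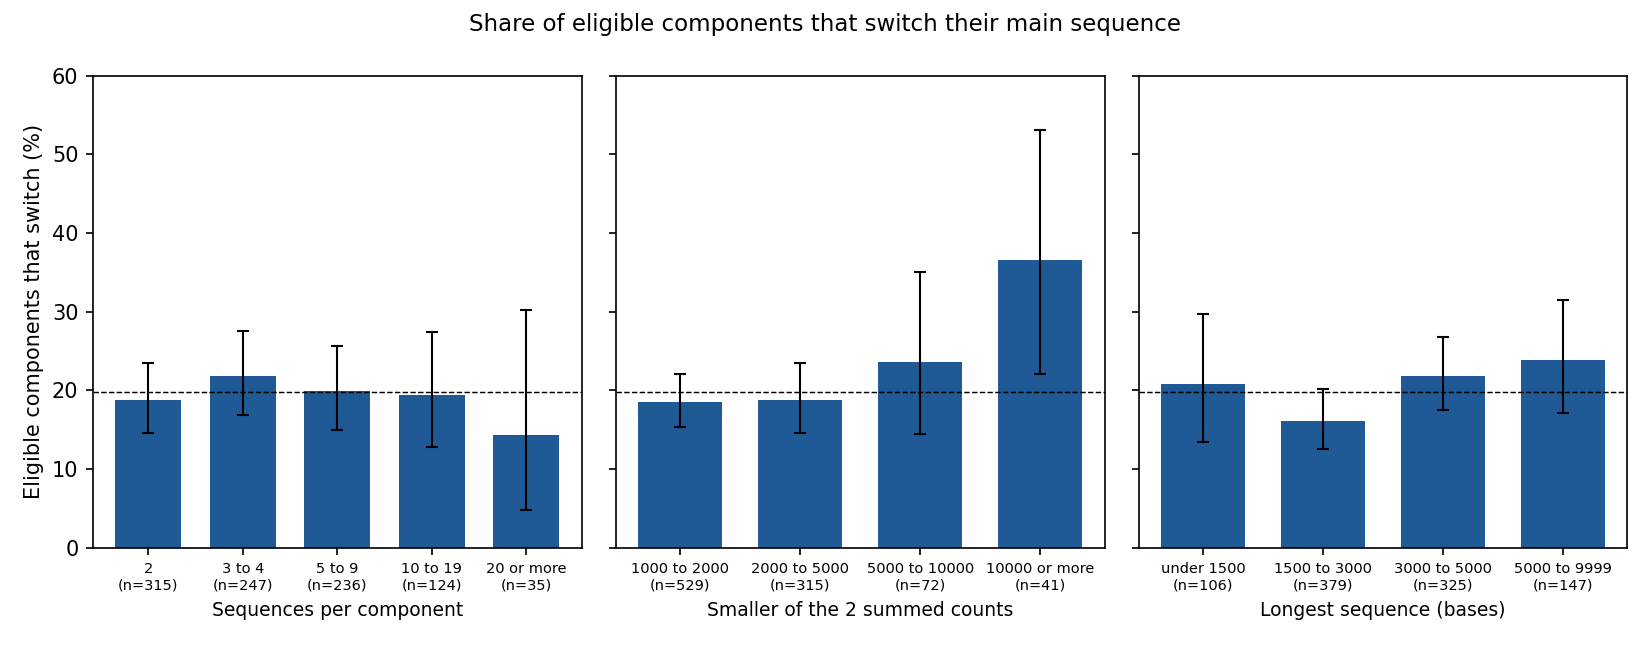
Percent of eligible components that switch their main sequence (y axis), by number of sequences, by the smaller of the 2 summed counts and by the longest sequence in bases (x axes), with the number of eligible components under each bar and exact 95% binomial intervals. The dashed line is the 19.7% of all 957; the bar for 10000 counts or more stands at 36.6%, and the bars by number of sequences lie between 14.3% and 21.9%.

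Together the members held 3.26% of the hepatopancreas counts and 3.45% of the muscle counts. Much of this was comp57931_c0, with 46.6% of the members' hepatopancreas counts and 26.5% of their muscle counts. Without it the members held 1.74% and 2.54% of the libraries. The medians of summed level over the members were 39.5 hepatopancreas CPM and 33.3 muscle CPM, against 33.5 and 27.3 CPM in the other eligible components.

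The threshold of 50 points has no gap around it. Just inside lay comp55954_c0 (50.4 points), in which a sequence of 5470 bases held 50.5% in the hepatopancreas and 5.05% in muscle and one of 5530 bases held 7.30% and 57.7%, and comp59157_c1 (50.6 points). Just outside lay comp58758_c0 with 49.96 points and comp44520_c0 with 49.92 points, both with different main sequences in the 2 tissues. In comp44520_c0 the sequence of 608 bases held 94.5% of the hepatopancreas counts and 44.6% of the muscle counts, and the one of 209 bases held 5.52% and 55.4%.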

How the data were processed

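The authors deposited 1 table for both libraries, with a length, an estimated count and an FPKM value per library for each of 98560 assembled transcripts. The names of the tools for assembly, alignment and counting were not given in the sources used here. Estimated counts were deposited without scaling and were rounded only for intervals. The deposited FPKM values served as an alternative. Columns holding the authors' own tests between the libraries (p-values and adjusted p-values) were left out. Components were read from the IDs (the part before the sequence number). Counts were divided by the library totals (99204205 and 80492031) to give CPM, with a pseudocount of 1 CPM on the log2 scale. There was no test between tissues, since each has 1 library. The members, rules and alternatives were chosen with earlier results of these data known. Components were named by rule: the 4 with the largest share difference, the 4 with the highest smaller sum, the 2 highest and 2 lowest ratios, the 2 largest and 2 smallest length ratios, and 2 on each side of the threshold. Alternatives changed the count minimum, the share difference, the ceiling, the grouping, the unit, the scaling, the minimum level and the pseudocount. No gene lists or cell type markers were applied, because the IDs carry no gene names. The selection was run on simulated counts with a lower count minimum, in which some components had the shares of their 2 leading sequences swapped. The swaps were large enough to pass the limit, and the other components had like shares in both tissues. Division of reads between like sequences was not simulated. The run checks only the working of the rule and says nothing about the members found. Scripts ran in Python 3.11.15 with pandas 2.3.3, numpy 2.4.6 and scipy 1.17.1, and plots were drawn with matplotlib 3.10.9.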

Additional observations from a re-analysis of the deposited data

How the results depend on the processing

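The number of switching components followed the limits of the rule. It was 956 of 4598 eligible components with a minimum of 100 counts per tissue, 15 of 41 with 10000, 345 with a share difference of at least 0.25 and 74 with at least 0.75, against 189 of 957. Only 1 remained when the 4 counts of the main sequences had to be whole. It was 168 with shares of FPKM, 191 without the ceiling on length and 208 of 1088 when all sequences of one assembly number formed a component. The median log2 length ratio of the main sequences, 0.00589 (hepatopancreas over muscle), turned to -0.0877 with a minimum of 10000 counts and to -0.00466 with a share difference of at least 0.75, and the cause was not tested. The members called higher in the hepatopancreas (22) ranged over the other settings from 17 to 25, and those called higher in muscle (15) from 15 to 18. Under the settings run (median scaling, summed FPKM and another pseudocount) the median log2 ratio of summed level stayed between -0.02 and 0.23. By FPKM no member named by rule changed the sign of its share difference, but comp58911_c1 then had 1 main sequence for both tissues, and comp51830_c0 and comp59157_c1 had another main sequence in muscle. Depth limits shares near 0 in components of about 1000 counts, and every difference lacks a replicate. No paired analysis was possible because there was a single library from either tissue.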

Other observations

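Of the eligible components 5 had a share difference of at least 50 points without a change of main sequence by counts, and are named because they are few. In each of them the main sequence held a larger share in muscle. In comp57273_c0 a sequence of 2208 bases held 29.8% of 6738 counts in the hepatopancreas and 92.5% of 1106 in muscle. In comp55948_c0 a sequence of 5137 bases held 47.6% and 98.6%, in comp58983_c0 one of 2050 bases held 35.4% and 94.8%, in comp58794_c0 one of 5345 bases held 41.1% and 95.9%, and in comp58531_c0 one of 3692 bases held 35.3% and 88.0%. The muscle counts thus lay mainly on 1 sequence in these components and the hepatopancreas counts on several. A main sequence with most counts in one tissue and at most 50% in the other follows from how these 5 were chosen. Only the tissue was left free, and nothing is read from it in 5 components. By FPKM comp55948_c0 changed its main sequence in the hepatopancreas and met the whole rule of a switch, with 59.3 points. comp58794_c0 also changed its main sequence in the hepatopancreas, but with a difference of 37.6 points. The other 3 had the same main sequence in both tissues by FPKM too, with 52.7 to 61.4 points.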
